A study of Mus musculus with 6 samples.

Results

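Claudins are the membrane proteins that set the tightness of epithelial and endothelial sheets. The claudin genes described here were the 10 named Cldn1, Cldn2, Cldn3, Cldn4, Cldn5, Cldn6, Cldn7, Cldn10, Cldn12 and Cldn18, found by symbol in a count table of 14228 genes from mouse stomach fibroblasts. The table held 4 more numbered claudin genes, Cldn8, Cldn15, Cldn22 and Cldn23. These 10 were selected on earlier results of the same comparison between cancer-associated and normal fibroblasts. Their levels and differences between the groups are therefore given as a description. Test results for them are printed beside those of all genes tested, and nothing is read from them.

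All mice were 8 weeks old and were triple-transgenic for iLgr5;GLI2A, which lets an activated GLI2 be induced in the lineage of Lgr5-expressing cells and models gastric cancer. Mice of the cancer-associated fibroblast (CAF) group had tamoxifen dissolved in corn oil by oral gavage for 5 days. Doxycycline in the chow for 3 weeks followed, with doxycycline in sucrose water as well during the first 3 of those days. Mice of the normal group carried the same transgenes and were given corn oil without doxycycline, so cancer and the drugs cannot be told apart. CAF libraries 1, 2 and 3 held cells of 1, 2 and 2 mice, and normal libraries 1, 2 and 3 held cells of 1, 1 and 2 mice. Live cells were sorted as positive for podoplanin after cells with CD31, CD45 or EpCAM on their surface had been gated out. RNA was counted by MARS-seq, which sequences the 3′ ends of transcripts.

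In a tight junction, claudins of neighbouring cells bind each other and join into strands that seal the space between the cells. Some members close the seal, such as Cldn1, Cldn3 and Cldn5, and others form pores, such as Cldn2 and Cldn10, so the mixture decides which ions pass. Inside the cell the strands are tied to scaffold proteins of the ZO family. In the stomach, Cldn18 is the characteristic claudin of the gastric epithelium, whereas Cldn3, Cldn4 and Cldn7 are typical of intestinal epithelium and of many carcinomas. Cldn6 is known from embryonic epithelia and tumours, and Cldn5 from endothelium. Fibroblasts form no tight junctions of their own.

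The promoters of Cldn3, Cldn4 and Cldn6 are shown because Cldn3 and Cldn4 are neighbours on chromosome 5 and Cldn6 had the largest fitted difference of the members tested, and both promoters of Cldn18 because its difference had the opposite sign. Each sequence is the RefSeq entry on GRCm38.p6, 5′ to 3′ on the strand of the gene, from 250 bases before the start site to 50 bases after it. Capitals mark letters that matched any of 7 motifs searched on both strands. The motifs were the GC box GGGCGG, the TATA box TATAAA, the E-box CAGGTG bound by Snail and ZEB repressors, the grainyhead site AACNGGTT, the AP-1 site TGANTCA, the GATA site AGATAA and the forkhead site TGTTTAC.
Cldn3 promoter, chr5:134985964-134986263, plus strand: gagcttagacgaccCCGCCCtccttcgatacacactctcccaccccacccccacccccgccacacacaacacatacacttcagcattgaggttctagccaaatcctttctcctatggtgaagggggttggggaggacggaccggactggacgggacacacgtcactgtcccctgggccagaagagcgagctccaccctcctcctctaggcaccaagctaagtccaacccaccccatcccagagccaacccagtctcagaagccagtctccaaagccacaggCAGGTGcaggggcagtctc
Cldn4 promoter, chr5:134946885-134947184, minus strand: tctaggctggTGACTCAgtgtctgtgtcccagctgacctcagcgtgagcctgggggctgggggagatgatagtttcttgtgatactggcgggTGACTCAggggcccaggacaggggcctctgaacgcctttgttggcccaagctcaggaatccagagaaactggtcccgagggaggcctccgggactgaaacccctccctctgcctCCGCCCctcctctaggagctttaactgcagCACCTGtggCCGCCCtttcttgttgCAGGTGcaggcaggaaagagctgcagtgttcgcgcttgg
Cldn6 promoter, chr17:23679115-23679414, plus strand: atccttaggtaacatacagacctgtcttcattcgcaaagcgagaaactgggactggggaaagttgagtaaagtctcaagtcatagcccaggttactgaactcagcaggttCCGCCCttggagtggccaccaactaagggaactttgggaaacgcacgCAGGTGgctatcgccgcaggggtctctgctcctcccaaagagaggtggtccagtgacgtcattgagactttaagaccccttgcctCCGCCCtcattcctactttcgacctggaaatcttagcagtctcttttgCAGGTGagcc
Cldn18 downstream promoter, chr9:99710014-99710313, minus strand: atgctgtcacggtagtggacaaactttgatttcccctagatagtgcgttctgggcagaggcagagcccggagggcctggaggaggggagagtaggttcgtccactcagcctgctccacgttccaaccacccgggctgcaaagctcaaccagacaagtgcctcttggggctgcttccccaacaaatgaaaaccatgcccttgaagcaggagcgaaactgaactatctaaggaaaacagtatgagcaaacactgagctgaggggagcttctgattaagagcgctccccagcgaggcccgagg
Cldn18 upstream promoter, chr9:99717218-99717517, minus strand: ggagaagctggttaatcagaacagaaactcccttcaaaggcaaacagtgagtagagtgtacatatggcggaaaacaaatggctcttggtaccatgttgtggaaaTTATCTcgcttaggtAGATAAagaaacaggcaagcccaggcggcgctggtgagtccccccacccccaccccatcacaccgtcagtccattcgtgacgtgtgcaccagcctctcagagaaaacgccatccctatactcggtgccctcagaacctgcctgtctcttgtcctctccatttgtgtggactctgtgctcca

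The E-box letters were found 31 bases after the start site of Cldn3, 14 bases before and 11 bases after that of Cldn4, and 93 bases before and 40 bases after that of Cldn6. The RefSeq start site of Cldn6 used here lies downstream of the start of the gene in GENCODE, and the last 30 bases shown were in none of its GENCODE transcripts, so these distances hold for the RefSeq start only. The 10 genes had 15 listed promoters, of which 4 held the E-box, in Cldn3, Cldn4, Cldn6 and Cldn7, against 20.2% of all 32851 mouse promoters of this length. A GC box was in 9 of the 15, against 35.7% of all promoters. The Cldn4 promoter held the AP-1 letters at 240 and 158 bases before the start, letters that 7.81% of all promoters hold. Neither Cldn18 promoter held an E-box or a GC box. The upstream promoter, known as the lung start of Cldn18, held 2 GATA sites, a motif found in 11.2% of all promoters, and the downstream promoter, known as the stomach start, matched none of the 7 motifs. Counts from the 3′ end cannot tell the lung and stomach forms apart. These matches describe letters only.

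Across the libraries the total count ran from 644522 to 6422568, and 11627 to 14118 genes had at least 1 count. Levels below are CPM (counts scaled to library size with TMM factors, which offset differences in RNA make-up). A count of 0 allows a level of up to 3 counts, which was 4.39, 0.414 and 0.406 CPM in CAF libraries 1, 2 and 3 and 1.22, 3.80 and 3.75 CPM in normal libraries 1, 2 and 3. These limits and the intervals below cover counting error only. All 12 fibroblast markers on the list used to check the label were in the table and all were detected in every library, except Fap in normal library 3. Their level was uneven. The markers summed to 10041 CPM for CAF library 1, less than the 10301 of normal library 2 and the 13377 of normal library 3. CAF libraries 2 and 3 reached 25411 and 30955 CPM, and normal library 1 had 5433 CPM. Epithelial RNA was present in every library in spite of the EpCAM gate. Epithelial surface and keratin genes summed to 4691 CPM for CAF library 1, against 2054 and 1978 CPM for CAF libraries 2 and 3. Normal libraries 1, 2 and 3 had 7364, 3973 and 1352 CPM. Genes of gastric gland cells made up 0.555 to 0.860% of counts in CAF libraries and 17.8, 14.1 and 4.05% in normal libraries 1, 2 and 3. Normal libraries 1 and 2 thus stood apart, and results are also given without them. In sorted bulk RNA, fewer cells of a type and less RNA per cell cannot be told apart.

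The claudin mixture differed between the groups, while the summed level overlapped. The 10 genes summed to 562, 436 and 432 CPM in CAF libraries 1, 2 and 3 and to 587, 460 and 70.0 CPM in normal libraries 1, 2 and 3. Normal library 3 alone was far below the rest. Without Cldn18, the remaining 9 genes summed to 546, 409 and 403 CPM in CAF and to 64.9, 76.0 and 11.3 CPM in normal libraries, with no overlap. This comparison chose the genes, and the sum leaves out the member that was lower in CAF. The separation of the sums therefore carries no weight.

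Cldn18 supplied 88.9, 83.5 and 83.9% of the claudin counts in normal libraries 1, 2 and 3, and 2.86, 6.12 and 6.73% in CAF libraries 1, 2 and 3. Normal library 3 had only 56 claudin counts, which gives its share a 95% exact binomial interval of 71.7 to 92.4%, and its value sat between those of the other normal libraries. Group means were 85.4 ± 3.04% in normal and 5.24 ± 2.08% in CAF (SD, n = 3 each). In CAF libraries no member held such a share. Cldn7 had the highest mean share there, 23.3 ± 6.63%, followed by Cldn3 with 18.3 ± 1.93%, Cldn10 with 14.4 ± 8.65%, Cldn4 with 13.7 ± 8.99% and Cldn6 with 12.4 ± 3.05% (SD, n = 3). Neighbours in this order did not differ beyond their spread. MARS-seq counts transcript ends, so these shares were not divided by transcript length.

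**Figure D1:**
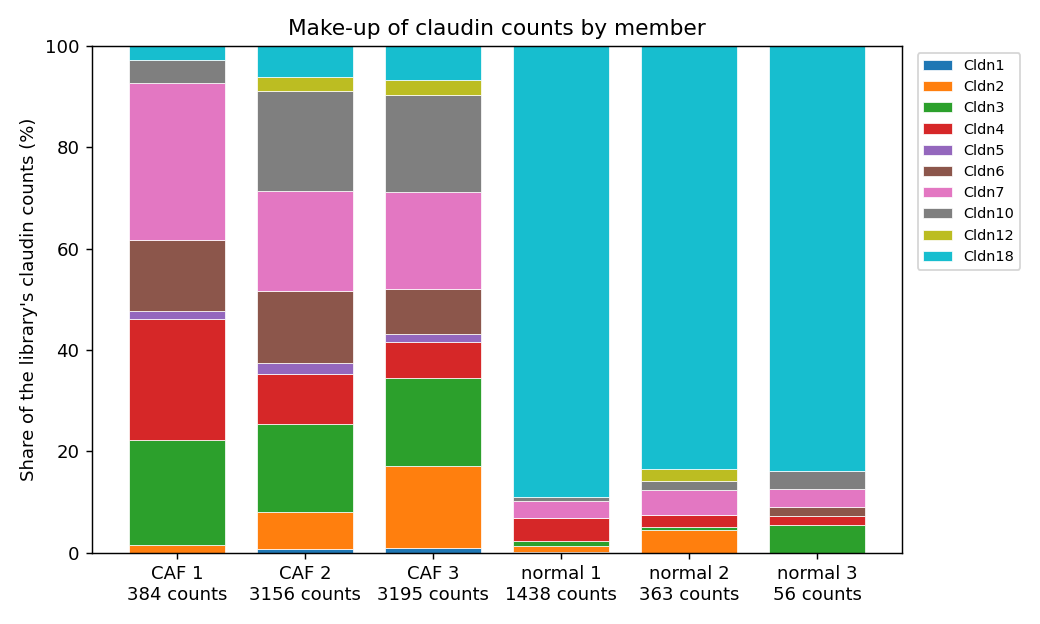
Share of each library's claudin counts (%, vertical axis) taken by each of the 10 claudin genes, 1 bar for each library with its claudin count below. Cldn18 fills 83.5 to 88.9% of the normal bars and 2.86 to 6.73% of the CAF bars.

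Of the 10 genes, 9 passed the filter on low counts and Cldn1 did not. A gene that passes only through the group in which it is high had to differ, so the counts over these 9 carry no weight. Among all 10148 genes tested with edgeR's quasi-likelihood test, 1.10% had a Benjamini-Hochberg adjusted p under 0.05, 0.897% with a higher and 0.207% with a lower level in CAF. Among the claudins those with such a p were Cldn3, Cldn6 and Cldn10, 3 of 9, all higher in CAF. The 3 libraries of either group lay wholly above those of the other for 7 of the 9 claudins and for 19.9% of all tested genes. The median log2 fold change (CAF minus normal) was 2.88 over the 9 claudins and 0.06 over all tested genes. Since this comparison chose the genes, nothing is read from these counts. The number of genes past the threshold, 112 of 10148, was 0 when normal library 1 was left out, 4 without CAF library 2, 6 without normal library 2 and 1193 without normal library 3. It was 29 without CAF library 3 and 49 without CAF library 1, and the claudins among them were 0 to 6 over these fits. Cldn3 and Cldn6 no longer passed without CAF library 2, normal library 1 or normal library 2. Cldn10 was lost in the same fits, and also without CAF library 3 and with a covariate for mice per library.

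**Figure D2:**
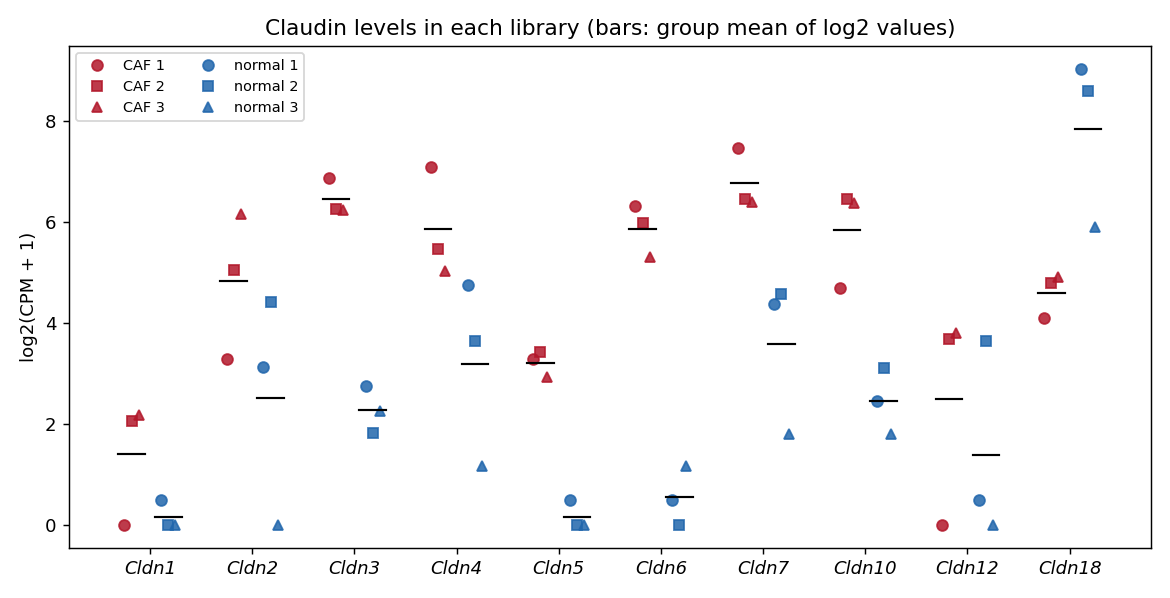
Level of each claudin gene in each library, as log2(CPM + 1) on the vertical axis, with CAF libraries in red, normal libraries in blue and a bar at each group's mean of the log2 values. Cldn3, Cldn6 and Cldn5 form tight clusters apart in the 2 groups, Cldn18 lies higher in normal libraries, and Cldn1, Cldn2 and Cldn12 overlap.

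Cldn3, a sealing claudin of intestinal and tumour epithelium, was at 116, 74.9 and 74.5 CPM in CAF libraries 1, 2 and 3 and at 5.71, 2.53 and 3.75 CPM in normal libraries 1, 2 and 3. The groups were far apart and each was narrow. The fitted difference was 20.1-fold, or 4.33 ± 0.44 (SE) on the log2 scale. It is a gene of 1 exon at chr5:134986214-134987472 on the plus strand (mm10), and the end of the gene overlaps the antisense gene Wbscr25.

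Cldn4, which seals paracellular sodium and is raised in many carcinomas, lies 39.3 kb away on the opposite strand, also as 1 exon, at chr5:134945119-134946934. Its levels were 135, 42.9 and 31.4 CPM in CAF and 25.7, 11.4 and 1.25 CPM in normal libraries. The groups did not overlap, but CAF library 3 was close to normal library 1. The log2 difference was 2.28 ± 0.87 (SE), with 1.41 when CAF library 1 was left out and 3.38 without normal library 1.

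Cldn7, found along the sides of epithelial cells and bound to EpCAM, had the highest mean level of the claudins in CAF libraries, at 174, 86.3 and 83.0 CPM. In CAF libraries 2 and 3 it was level with Cldn10, with 625 against 623 counts and 614 against 609 counts. In normal libraries Cldn7 was at 19.6, 22.8 and 2.50 CPM, again without overlap, and the log2 difference was 2.88 ± 0.67 (SE). The gene is at chr11:69964779-69967885 on the plus strand.

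Cldn6, a claudin of embryonic epithelium, had at most 1 count in each normal library. It had 54, 449 and 283 counts in CAF libraries 1, 2 and 3, or 79.0, 62.0 and 38.3 CPM, and 1, 0 and 1 counts in normal libraries 1, 2 and 3. On pooled counts the CAF rate was 104 times the normal rate, with a 95% interval of 28.6 to 857 from counting error alone. The fitted log2 difference, 6.77 ± 0.70 (SE), was 7.38 without normal library 3 and depends on the prior count at so few normal counts. The gene, at chr17:23679249-23682446 on the plus strand, lies 0.138 kb from Cldn9 on the opposite strand.

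Cldn10, a pore-forming claudin whose forms pass either anions or cations, was at 24.9, 86.0 and 82.4 CPM in CAF and 4.49, 7.60 and 2.50 CPM in normal libraries. Here CAF library 1 was the low library of its group, the reverse of Cldn4 and Cldn7. The log2 difference was 3.77 ± 0.63 (SE). The gene is at chr14:118787908-118875489 on the plus strand.

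Cldn2, which forms a cation and water pore in leaky epithelia, was at 8.78, 32.2 and 70.5 CPM in CAF and at 7.75, 20.3 and 0 CPM in normal libraries. The groups overlapped, since CAF library 1 was below normal library 2, and the log2 difference was 2.07 ± 1.02 (SE), with 1.23 when CAF library 3 was left out and 2.99 without normal library 2. Cldn2 is on the X chromosome at chrX:139800828-139811386, plus strand.

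Cldn18 was the member that was higher in normal libraries. It was at 16.1, 26.6 and 29.1 CPM in CAF libraries 1, 2 and 3 and at 522, 384 and 58.8 CPM in normal libraries 1, 2 and 3. The groups did not overlap, but normal library 3 was nearer to the CAF libraries than to the other normal libraries. The difference was 13.1-fold, or -3.71 ± 0.76 (SE) on the log2 scale, and it was -1.19 in the fit that omitted normal libraries 1 and 2. The gene is at chr9:99689461-99717267 on the minus strand, where the antisense gene Gm16004 overlaps it.

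Cldn5, the main claudin of blood vessels, was low throughout, at 8.78, 9.66 and 6.63 CPM in CAF libraries. Normal library 1 had 1 count and the other normal libraries none. The pooled rate in CAF was 33.0 times that in normal libraries, with a counting interval of 5.81 to 1312. It has 1 exon, at chr16:18776847-18778262 on the plus strand.

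Cldn12, an atypical claudin linked to calcium uptake, was at 0, 11.9 and 12.8 CPM in CAF and 0.408, 11.4 and 0 CPM in normal libraries. Its detection followed neither group, and the log2 difference was 1.47 ± 1.37 (SE), with 0.64 when normal library 1 was left out, 0.93 without normal library 3 and 4.79 without normal library 2. Cldn1, the sealing claudin of the epidermis, had 0, 23 and 26 counts in CAF and 1, 0 and 0 counts in normal libraries. The counts of Cldn1 came from the deepest libraries of the CAF group, and CAF library 1, at its depth, allows up to 4.39 CPM. Cldn12 is at chr5:5489537-5514958 and Cldn1 at chr16:26356642-26371841, both on the minus strand.

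Over the 6 libraries, Pearson's r of log2(CPM + 1) was 0.99 between Cldn3 and Cldn6, 0.99 between Cldn3 and Cldn5 and 0.95 between Cldn4 and Cldn7. Cldn18 gave -0.90 with Cldn6 and -0.84 with Cldn3, but -0.38 with Cldn4 and -0.14 with Cldn2. These values describe 6 shared libraries in 2 groups and have no p. Cldn3, Cldn4, Cldn6 and Cldn7 were all highest in CAF library 1 within the CAF group, and Cldn4 and Cldn7 shared low values in normal library 3.

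Each of 3 members was compared with 9342 tested genes that averaged 20 raw counts or more, leaving out genes with only a predicted or clone name. Among these, the profiles most like that of Cldn3 were Fam81a (r = 0.998), Cfc1 (0.997) and Grb14 (0.995). For Cldn6 they were Grb14 (0.997), Napsa (0.996) and B4galt4 (0.995). Napsa, which encodes an aspartic protease of lung and kidney epithelium, was at 613, 385 and 319 CPM in CAF and 1.63, 1.27 and 2.50 CPM in normal libraries. For Cldn18 they were Gpr89 (0.999), Ppfibp2 (0.998) and Adcy6 (0.997). All these genes were picked for their profile over these 6 libraries.

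E-cadherin (Cdh1), the adhesion protein of epithelial junctions, gave a measure of claudin per epithelial transcript. Cdh1 was at 138, 90.0 and 88.7 CPM in CAF and at 342, 290 and 41.3 CPM in normal libraries (log2 fold change -1.10 ± 0.68, SE; edgeR's adjusted p = 0.520). Without normal libraries 1 and 2 its log2 fold change was 1.39. Cldn3 had 0.840, 0.833 and 0.840 counts per count of Cdh1 in CAF libraries 1, 2 and 3 and 0.017, 0.009 and 0.091 in normal libraries 1, 2 and 3. The CAF ratios to Cdh1 differed by less than their counting intervals, of which the widest ran from 0.615 to 1.15. Ratios to keratins were less even. Per count of Krt8, Cldn3 was at 0.153, 0.251 and 0.284 in CAF libraries 1, 2 and 3, and per count of Krt18 at 0.086, 0.165 and 0.142. For both keratins the counting interval of CAF library 1 lay below those of the other CAF libraries.

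For Cldn7 the ratio to Cdh1 was 1.27, 0.959 and 0.936 in CAF and 0.057, 0.079 and 0.061 in normal libraries. For Cldn18 it was 0.117, 0.296 and 0.328 in CAF and 1.53, 1.32 and 1.42 in normal libraries. Normal library 3, which held the least epithelial RNA of its group, therefore had the same Cldn18 ratio to Cdh1 as the others within its counting interval of 0.893 to 2.29. Per count of Psca, a surface protein of gastric pit cells, Cldn18 was at 0.099, 0.144 and 0.195 in CAF and at 0.049, 0.048 and 0.040 in normal libraries. Per count of the pit cell mucin Muc5ac it was at 1.10, 0.702 and 2.99 in CAF and 1.69, 2.86 and 0.364 in normal libraries, and per count of Gkn1, another pit cell product, at 0.180, 0.027 and 0.106 against 0.118, 0.194 and 0.011. Cldn18 was thus lower in CAF per Cdh1 and higher per Psca, while its ratios to Muc5ac and Gkn1 overlapped between the groups. Psca was named for its lower level in CAF in this same comparison, so the ratio to it carries no weight. Per count of Epcam, Cldn18 was at 0.069, 0.210 and 0.255 in CAF and at 3.49, 4.89 and 4.27 in normal libraries. Its ratios to Krt8 and Krt18 were also lower in CAF, without overlap of the values. Per count of Krt8, normal library 3 was at 0.147, below the 0.316 and 0.618 of normal libraries 1 and 2. Its counting interval there, 0.106 to 0.201, overlapped that of CAF library 3, 0.096 to 0.128.

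**Figure D3:**
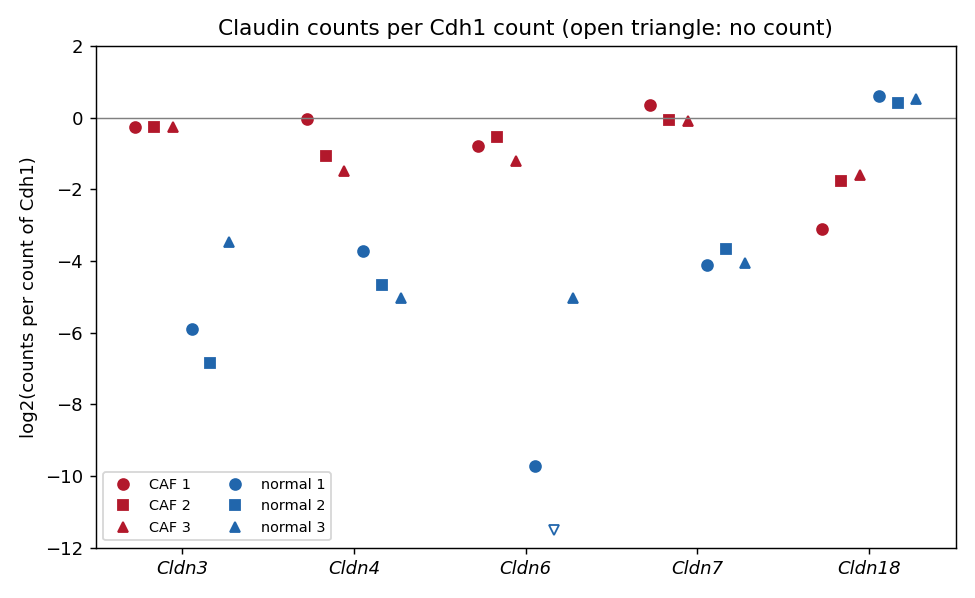
Counts of 5 claudin genes per count of Cdh1 in each library, as log2 on the vertical axis, with CAF libraries in red, normal libraries in blue and an open triangle for no count (Cldn6 in normal library 2). As plain ratios, CAF libraries are at 0.833 to 0.840 for Cldn3 and at 0.117 to 0.328 for Cldn18, and the normal libraries at 0.009 to 0.091 for Cldn3 and 1.32 to 1.53 for Cldn18.

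The other claudins were few. Cldn15, a cation pore of intestine, was at 8.78, 14.4 and 14.7 CPM in CAF and 1.22, 2.53 and 5.00 CPM in normal libraries (log2 fold change 2.31 ± 0.65, SE; edgeR adjusted p = 0.133). The groups did not overlap, but the difference did not pass the threshold. Cldn8, Cldn22 and Cldn23 had at most 12 counts in any library and were not tested. For Cldnd1, a claudin-domain relative, the log2 fold change was -0.00 (adjusted p = 0.999).

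None of the 28 tested genes for tight-junction partners passed the threshold with edgeR, of 34 in the table. At an unadjusted p under 0.05 there were 5, all lower in CAF, against 15.3% of all tested genes. DESeq2 placed 4 past an adjusted p of 0.05, all lower, against 7.80% of all tested genes. Their median log2 fold change was -0.20 and 11 of 28 were positive, against 5469 of all 10148 tested genes. That median became 0.60 in the fit that omitted normal libraries 1 and 2, so its sign depended on those libraries. Occludin (Ocln), the other main strand protein, was at 5.85, 4.28 and 4.87 CPM in CAF and 8.98, 7.60 and 1.25 CPM in normal libraries (log2 fold change -0.37 ± 0.67, SE, edgeR adjusted p = 0.852).

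Of the membrane partners, 11 were tested with a median of -0.37. Crb3, which sets apical polarity, was at 5.85, 8.69 and 11.6 CPM in CAF and 86.1, 58.3 and 10.0 CPM in normal libraries (log2 fold change -2.51 ± 0.71, SE; edgeR adjusted p = 0.135). Igsf5, a junctional adhesion molecule, had -2.21 ± 0.66 (adjusted p = 0.156). For both genes normal library 3 lay among the CAF values.

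The scaffolds and polarity genes had 17 tested members with a median of -0.02. Cingulin (Cgn), which links strands to the cytoskeleton, had a log2 fold change of -2.15 ± 0.60 (SE, edgeR adjusted p = 0.128). Tjp3, the scaffold ZO-3, had -2.53 ± 0.71 (adjusted p = 0.134), and Tjp1, the scaffold ZO-1, 0.80 ± 1.18 (adjusted p = 0.822). When normal libraries 1 and 2 were omitted, the values of Crb3, Igsf5, Cgn and Tjp3 were -0.07, -0.09, -0.52 and -0.06.

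**Figure D4:**
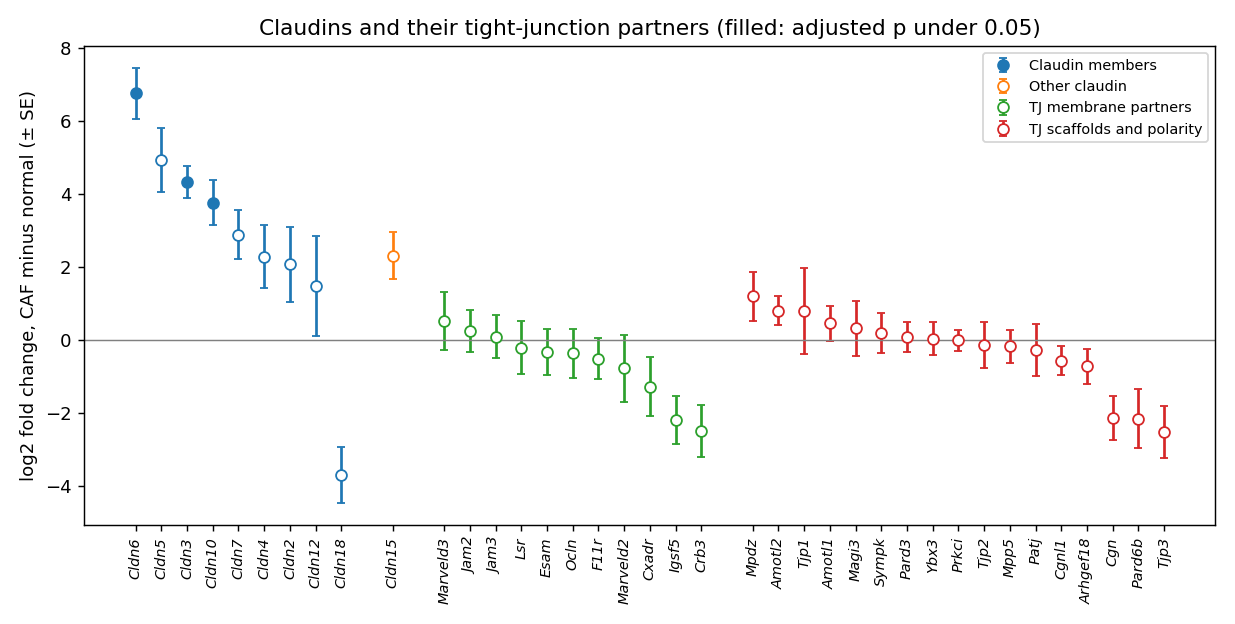
Log2 fold change (CAF minus normal, vertical axis) with its SE for the 9 tested claudin members, Cldn15 and the 28 tested tight-junction partners, filled where the adjusted p was under 0.05. The claudin members run from -3.71 to 6.77 and the partners from -2.53 to 1.19. The members were chosen by this comparison.

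The genes next to the claudins along the chromosome were tested in the same way. Around Cldn3 and Cldn4, Mettl27 gave 0.21 ± 0.93 on the log2 scale (SE, edgeR adjusted p = 0.951), Abhd11 0.05 ± 0.28 (adjusted p = 0.965) and Abhd11os 0.92 ± 0.78 (adjusted p = 0.667). Abhd11, 21.7 kb past Cldn3, was nearly flat at 51.2 to 61.4 CPM in CAF and 46.9 to 58.8 CPM in normal libraries. Eln, which encodes elastin and lies 198 kb from Cldn4, had 2.03 ± 0.52 (adjusted p = 0.103).

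Around Cldn6 the nearest gene of the table was Tnfrsf12a, the receptor of the cytokine TWEAK, at 1.80 ± 0.47 (SE, edgeR adjusted p = 0.106). The log2 fold changes of Hcfc1r1, Pkmyt1 and Paqr4 were -0.49, -0.54 and -1.39, with adjusted p of 0.544, 0.623 and 0.152. Around Cldn18, Dzip1l, Il20rb and Nck1 had log2 fold changes of 0.90, -0.65 and 1.22, with adjusted p of 0.605, 0.767 and 0.713. Dzip1l lies 20.2 kb from Cldn18, but Il20rb and Nck1, the nearest genes of the table on the other side, lie 740 and 775 kb away. A4gnt, which makes the mucin sugar of gastric gland cells, was too low for the test, with 1.46, 1.38 and 3.65 CPM in CAF and 86.5, 69.7 and 2.50 CPM in normal libraries. No neighbour other than Cldn3 passed the threshold.

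Epithelial genes of other kinds were given the same test because claudins are epithelial products. Of 43 in the table, 34 were tested and none passed the threshold with edgeR. At an unadjusted p under 0.05 there were 14, of which 2 were higher in CAF, against 15.3% of all tested genes. DESeq2 placed 9 past an adjusted p of 0.05, 8 of them lower, against 7.80% of all tested genes. The median log2 fold change was -1.10, and it was 1.52 in the fit that omitted normal libraries 1 and 2. In that fit Cldn3 had 4.58 and Cldn6 5.57 on the log2 scale, from 3 and 1 counts in the normal library that was left. Cldn4 had 5.74, Cldn7 5.52, Cldn10 4.77 and Cldn18 -1.19. Cldn2, Cldn5 and Cldn12 had no count in that library, so their values of 10.3, 8.06 and 8.25 are no bound.

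Epcam, whose protein was gated out in the sort, was at 233, 127 and 114 CPM in CAF and 150, 78.5 and 13.8 CPM in normal libraries (log2 fold change 0.94 ± 0.72, SE; edgeR adjusted p = 0.623). Cldn3, Cldn4 and Cldn7 together had 1.82, 1.61 and 1.66 counts per count of Epcam in CAF and 0.341, 0.468 and 0.545 in normal libraries. The ratio in normal library 3 rests on 6 and 11 counts. Its counting interval, 0.166 to 1.61, overlaps that of CAF library 2, 1.48 to 1.75. Krt7, a keratin of ductal epithelium, was at 966, 349 and 291 CPM in CAF and 69.4, 49.4 and 3.75 CPM in normal libraries (3.68 ± 0.93, SE, adjusted p = 0.100). Krt19 stood the other way, at 155, 155 and 151 CPM in CAF and 986, 434 and 464 CPM in normal libraries (-2.03 ± 0.41, SE, adjusted p = 0.065). Krt8 and Krt18, the keratins of simple epithelia, had log2 fold changes of -1.03 (adjusted p = 0.530) and -0.15 (adjusted p = 0.963).

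The 15 tested epithelial transcription and splicing factors had a median of -1.98. Gata4, a factor of gastric epithelium, was at 8.78, 10.1 and 7.57 CPM in CAF and 200, 104 and 31.3 CPM in normal libraries (log2 fold change -3.67 ± 0.67, SE; edgeR adjusted p = 0.053). Ovol1, a repressor that maintains epithelial state, had -4.63 ± 0.84 (SE, adjusted p = 0.053). Both had groups that did not overlap and just missed the threshold. Ovol1 rested on few counts, with 0, 3 and 7 in CAF and 58, 15 and 4 in normal libraries 1, 2 and 3. The 0 in CAF library 1 allows up to 4.39 CPM, near the 5.00 CPM of normal library 3. Grhl2, a grainyhead factor known to drive claudin genes, had -1.19 ± 0.96 (SE, adjusted p = 0.641).

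Repressors of epithelial genes, several of which bind the E-box searched above, had 5 tested members, of which none passed the threshold with edgeR, and the median was 1.28. At an unadjusted p under 0.05 there were 2, against 15.3% of all tested genes. Snai1 was at 192, 245 and 177 CPM in CAF and 55.1, 49.4 and 149 CPM in normal libraries (log2 fold change 1.28 ± 0.47 (SE), adjusted p = 0.249). Twist2 had 1.40 ± 0.55 (adjusted p = 0.275) and Zeb1 1.57 ± 0.88 (adjusted p = 0.473). Zeb2 had too few counts for the test, at 0, 7.59 and 8.66 CPM in CAF and 0.408, 0 and 1.25 CPM in normal libraries.

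Several marker lists of the cell types that express claudins held genes past the threshold. All 18 gastric gland genes tested had a lower fitted level in CAF (median -4.52), while 5469 of all 10148 tested genes had a higher one. Psca (-5.34, adjusted p = 0.035) and Mucl3 (-3.91, adjusted p = 0.022) fell by edgeR's test, as did 0.207% of all tested genes. The summed level of the gastric gland genes was 5235, 7624 and 5416 CPM in CAF libraries 1, 2 and 3 and 237312, 161241 and 38927 CPM in normal libraries 1, 2 and 3. Cldn18 followed the same order of normal libraries, and the part of gland cells in its result was not tested. Of 9 squamous forestomach genes tested, with a median of -3.51, only Krt1 fell past the threshold (-8.47, adjusted p = 0.045). These calls, and those of Sox18 and S100b below, were lost when any library except normal library 3 was left out, apart from S100b without CAF library 3 and Krt1 without normal library 1, where it was not tested. In those fits the adjusted p was 0.099 to 0.155 for Psca, 0.057 to 0.146 for Mucl3, 0.098 to 0.255 for Krt1, 0.075 to 0.176 for Sox18 and 0.052 to 0.155 for S100b.

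**Figure D5:**
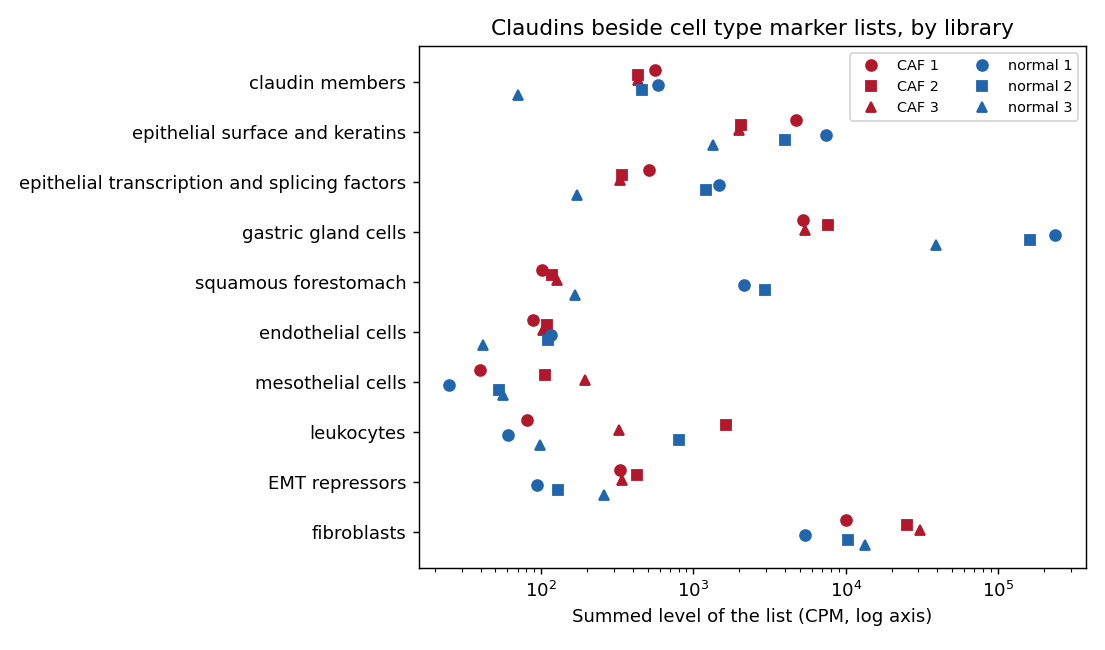
Summed level of the 10 claudins and of 9 marker lists in each library (CPM on a log horizontal axis), with CAF libraries in red and normal libraries in blue. Gastric gland genes sum to 5235 to 7624 CPM in CAF and 38927 to 237312 CPM in normal libraries, while the claudin sums overlap.

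For Cldn5, the endothelial list held 14 genes in the table and 6 tested, with a median of -0.40. Sox18, a vascular transcription factor, was at 39.5, 32.0 and 20.4 CPM in CAF and 2.04, 1.27 and 0 CPM in normal libraries and rose by edgeR's test (4.43 ± 0.69 on the log2 scale, SE, adjusted p = 0.038). Cdh5, the cadherin of endothelium, was at 14.6, 9.66 and 6.76 CPM in CAF and 2.86, 5.07 and 1.25 CPM in normal libraries (1.70 ± 0.64, SE, adjusted p = 0.263). Pecam1, the gene of the CD31 used in the gate, was at 0, 3.73 and 4.19 CPM in CAF and 9.39, 8.87 and 0 CPM in normal libraries (adjusted p = 0.720). The list summed to 87.8 to 109 CPM in CAF and 41.3 to 117 CPM in normal libraries, and its part in the Cldn5 values was not tested.

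Cldn15 also occurs in mesothelium, whose 5 tested markers had a median of 2.32 with none past edgeR's threshold and 3 at an unadjusted p under 0.05, against 15.3% of all tested genes. The mesothelial markers with the smallest p were Msln (3.76, adjusted p = 0.105) and Upk1b (2.32, adjusted p = 0.167), and the list summed to 39.5 to 193 CPM in CAF and 24.9 to 56.3 CPM in normal libraries. S100b, on the enteric glia list and expressed outside glia too, rose (5.08, edgeR adjusted p = 0.025). Pdpn, the sort marker, was at 27.8, 121 and 119 CPM in CAF and 5.71, 34.2 and 18.8 CPM in normal libraries (2.29 ± 0.76, SE, adjusted p = 0.202). Ptprc, the gene of CD45, had at most 5.52 CPM in any library.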

How the data were processed

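The authors deposited a table of raw counts per gene symbol for 6 MARS-seq libraries. Tools named in the submitters' processing notes, with no version, are cutadapt, STAR, HTSeq and DESeq2, and the build is mm10. Not given in the sources used here are the annotation, the use of strand and the collapsing of molecular identifiers, so overlapping antisense genes could share reads. All 6 count columns matched a sample by title, and 0 were left unmapped.

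Counts were fitted with edgeR 4.0.16 in R 4.3.3 (filterByExpr defaults, TMM factors, quasi-likelihood F test over 3 CAF and 3 normal libraries, no covariate). Adjusted p-values are Benjamini-Hochberg values over the 10148 genes tested, with a threshold of 0.05. An SE is the size of the log2 fold change divided by the square root of F. The procedure was tested on counts simulated from its own fitted model, which cannot show how it behaves when whole libraries stand apart. DESeq2 1.42.0 was an alternative. Libraries came from separate mice or pools of 2 mice, so p-values measure the spread between these libraries. Gene positions are those of GENCODE on mm10. Motifs were searched on both strands of RefSeq promoters.

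The claudin members, the gene lists and the alternative without normal libraries 1 and 2 were chosen with earlier results of these data known. Named genes were the members, other claudins, sort markers, Cdh1, Krt8, Krt18, Ocln, Tjp1, Grhl2, Zeb1 and Zeb2. In each list they were the genes past the threshold (up to 4), and otherwise at most the 2 with the lowest p. The nearest 2 genes of the table on each side of Cldn3, Cldn4, Cldn6 and Cldn18, and the 3 genes most like Cldn3, Cldn6 and Cldn18 by Pearson's r, were also named. Cdh5, Muc5ac and Gkn1 fall outside that rule and were added after their values were seen. The lists for lung (2 genes tested), thyroid (1), fetal liver (3, median log2 fold change -5.25), leukocytes (5) and fibroblasts (12, median 1.10) had 0 genes past the threshold with edgeR.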

Additional observations from a re-analysis of the deposited data

How the results depend on the processing

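No paired analysis was possible because the replicate numbers were given in accession order and pair no samples. With 3 libraries in each group, of which 1 CAF and 2 normal libraries held at most 903176 counts, counts of genes past the threshold depended strongly on the libraries and the tool. DESeq2 placed 792 genes past the threshold, against 112, with 6 of the claudins against 3, 4 of the tight-junction partners against 0 and 9 of the epithelial genes against 0. Without normal libraries 1 and 2, where the remaining normal library was assumed to vary like the CAF libraries, 0 genes and 0 claudins passed with edgeR, although 1271 genes had an unadjusted p under 0.05. DESeq2 was not run for that subset. With no filter on low counts 1 epithelial gene passed, and a covariate for mice per library gave 1. Leaving out each library in turn gave 0 to 1193 genes, 0 to 6 claudins, 0 to 7 tight-junction partners and 0 to 19 epithelial genes, the highest in each case without normal library 3. With TMM replaced by relative log expression factors, or gastric gland genes left out of the totals, the number of claudins past the threshold remained 3. The cause of these shifts was not tested.

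Of 752 values of 66 named genes under alternatives, 603 kept direction and side of the threshold, 51 newly passed it, 69 no longer passed it and 29 changed sign. Without normal libraries 1 and 2, log2 fold changes of opposite sign were 6.75 for Pecam1, 1.39 for Cdh1, 0.17 for Krt8, 2.73 for Krt18, 1.98 for Ocln, 7.33 for Grhl2, -0.9999 for Mettl27, -0.0046 for Abhd11, -0.24 for Abhd11os, -0.038 for Dzip1l, 2.29 for Il20rb and 0.24 for Cldnd1. Pecam1 and Grhl2 had no count in the normal library that was left, so their values are no bound. With a covariate for mice per library they were 1.07 for Krt18, 0.38 for Ocln, -0.75 for Mettl27 and -0.018 for Abhd11, and with no filter 0.025 for Cldnd1. Over the fits without each library, the range was -0.33 to 0.33 for Cldnd1, -0.81 to 0.61 for Krt18, -0.24 to 1.42 for Mettl27, -0.055 to 0.11 for Abhd11 and -1.17 to 0.015 for Il20rb. For the leukocyte genes of smallest p it was -0.23 to 4.12 for S100a8 and -0.68 to 3.54 for S100a9.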
